A study of Mus musculus with 2 samples.

Results

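Krüppel-like factors (KLFs) are zinc-finger transcription factors, and 10 of them were followed here: Klf2, Klf3, Klf4, Klf5, Klf6, Klf9, Klf10, Klf11, Klf13 and Klf15. They were taken by gene symbol from 19829 genes listed for bulk RNA-seq of whole mouse kidney, and each of the 10 had a row. There were 2 libraries, with 1 kidney sample per group. WT+AKI was the kidney of a wild-type male C57BL/6 littermate, and TG+AKI was the kidney of a male carrying an Inmt transgene that is overexpressed in proximal tubules. Both groups received voclosporin, a calcineurin inhibitor, at 30 mg/kg per day intraperitoneally for 2 weeks from 8 weeks of age. By the study's methods, both then underwent 30 min of bilateral renal ischemia followed by reperfusion at 14 weeks. This is taken here as the acute kidney injury (AKI) of the group names. Titles of the study's supplementary gene lists instead call the AKI of these groups induced by high-dose voclosporin. The time of kidney collection is given both as 24 h and as 48 h in the study's text. The sample labels state no treatment although the series design names voclosporin, and the title of the transgenic sample also reads conditional knockout. No sham-operated or untreated library was analysed here, so every difference below is one between the transgenic and the wild-type kidney, both labelled AKI. The 2 kidneys were not equally injured by their transcripts: tubular injury markers, given below, were far lower in the transgenic kidney. The study also reports that injury was prevented in the transgenic group. Genotype and degree of injury thus cannot be told apart here.

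KLFs bind GC-rich and CACCC-type elements through tandem zinc fingers at the carboxyl end of the protein, while the amino-terminal part differs between members and decides which cofactors are recruited. Klf3 belongs to a subgroup that binds the corepressor CtBP. Klf2, Klf4, Klf5 and Klf6 belong to a subgroup that mostly activates transcription through acetyltransferases, and Klf9, Klf10, Klf11 and Klf13 can bind the corepressor Sin3A. Klf15 stands outside these subgroups. In the kidney, Klf2 and Klf4 are best known from the endothelium, where laminar flow induces them through the MEK5-ERK5-MEF2 cascade. Klf6 is known as an early gene of injured tubules, and Klf15 is known from podocytes and as a regulator of amino acid metabolism induced by glucocorticoids.

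The values are normalized read counts, close to CPM, and every value was a whole number of reads times a constant (0.0236 per read in WT+AKI and 0.0302 in TG+AKI). The libraries held 38542764 and 36427421 reads. Differences are given as log2(value + 1) in TG+AKI minus the same in WT+AKI, and as ratios of the values with 95% intervals (Clopper-Pearson, from the reads). With 1 library per group these intervals cover counting error only, no test between the conditions was possible, and no p-value is given for a gene. The transgene itself checked the labels: Inmt, the methyltransferase that the transgene encodes, had a value of 10.4 in the wild-type and 402.8 in the transgenic kidney, a ratio of 38.5 (35.1 to 42.5).

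Klf6, Klf10, Klf11 and Klf4 were 2.75- to 5.79-fold lower in TG+AKI, whereas Klf15 was 3.18-fold higher and Klf9 was nearly level. Klf2, Klf3 and Klf13 lay between, each 1.54- to 1.61-fold lower. Of the 10 members, 9 reached a value of 10 in at least 1 library and were compared with the other genes. Klf5 did not, with 7.57 and 0.513. Among the 9, 7 were lower and 2 higher in TG+AKI, where 48.8% of all compared genes were lower. The count was 8 and 1 when the libraries were scaled to equal totals or to a median ratio of 1, because Klf9 then changed sign. Under these scalings the median log2 difference of all compared genes was also negative (−0.26 and −0.13). Of the 9, 4 were at least 2-fold lower, where 7.12% of the 10294 compared genes were, and 1 was at least 2-fold higher, where 5.74% were. The median log2 difference was −0.67 for the 9 members and 0.01 for all compared genes. Intervals excluded a ratio of 1 for all 9, but also for 81.3% of compared genes, so at this depth that property does not set the members apart. With no minimum value, 5 of the 10 members were at least 2-fold lower, set against 5.8% of the 19829 listed genes.

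**Figure D1:**
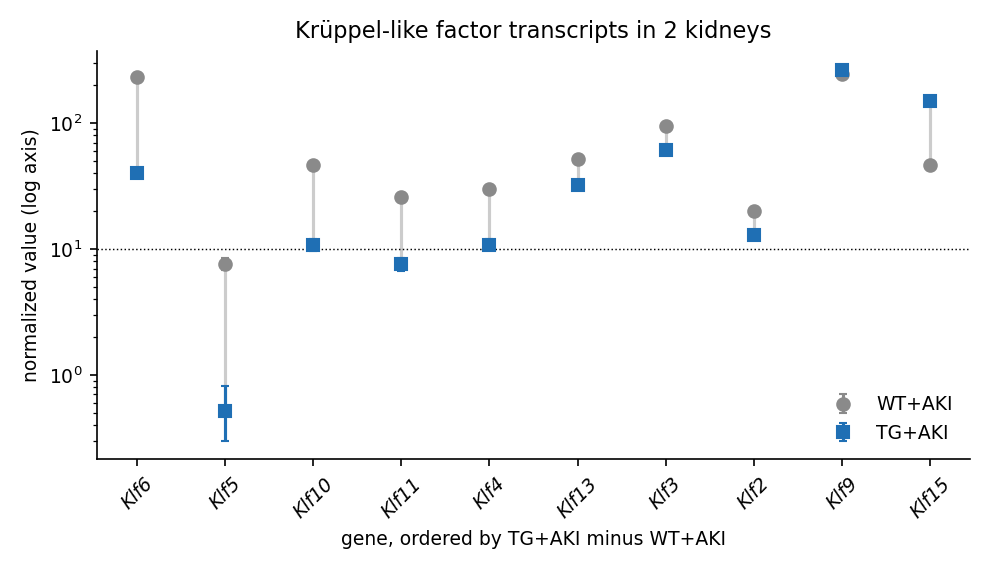
Normalized value of each of the 10 members (log axis) in WT+AKI (grey circles) and TG+AKI (blue squares), 1 library each, with 95% Poisson intervals that cover counting error only and are mostly smaller than the symbols; the dotted line marks the minimum value of 10. Klf6, Klf5, Klf10, Klf11 and Klf4 on the left are lower in TG+AKI, Klf9 is nearly level, and Klf15, at 47.0 and 149.6, is the member more than 2-fold higher.

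Promoter sequence was available for 8 members, from RefSeq on mm10 (GRCm38.p6), as windows of 250 bases before to 50 bases after a transcription start. Klf5 and Klf10 were not in that table. The sequences below show the E-box CACGTG, the element that clock and MYC-family factors bind, since it occurred in members that differed in opposite directions. It was found in 4 of the 8 windows (Klf4, Klf6, Klf11 and Klf15), against 7.15% of 32851 windows. Capitals mark CACGTG, and each stretch is upstream of the start used for its window and written 5′ to 3′ on the gene's strand.
Klf4 at chr4:55532632-55532677, minus strand: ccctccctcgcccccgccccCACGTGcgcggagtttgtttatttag
Klf6 at chr13:5861426-5861471, plus strand: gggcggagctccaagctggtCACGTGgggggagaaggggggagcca
Klf11 at chr12:24651137-24651182, plus strand: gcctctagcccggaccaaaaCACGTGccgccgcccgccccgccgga
Klf15 at chr6:90462328-90462429, plus strand: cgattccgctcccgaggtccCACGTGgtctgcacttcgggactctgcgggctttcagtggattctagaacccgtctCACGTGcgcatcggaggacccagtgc

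The Klf15 window held 3 matches, of which 2 lie in the printed stretch. That window (chr6:90462326-90462625) begins downstream of the gene's first annotated base (90461043). The start used for Klf15, and its printed stretch, thus lie inside the annotated gene span. The motif was in 3 members that were lower and in 1 that was higher in TG+AKI. These are the 4 members with a window that were past 2-fold, and the 4 within 2-fold (Klf2, Klf3, Klf9 and Klf13) had no match, a split that was noticed after the values were seen and is given as a description. GGGCGG, the GC box bound by SP and KLF proteins, was found on either strand in 7 of the 8 windows (all but Klf9), against 35.7% of all windows. CACCC, which KLFs also bind, was in 5 of 8 (57.5% of all). None of the 8 windows held TGACGTCA, the cAMP response element (1.79% of all), the CArG box (1.63%), TTATGTAA, the D-box of the clock output factors (0.938%), or TGTTCT, the core of a glucocorticoid response element (19.0%). All motifs were searched on both strands, and a match describes letters only, not a bound site.

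Members of the activator subgroup were each lower in TG+AKI. Klf6, a zinc-finger factor induced early in injured tubules (chr13:5861489-5870393, plus strand), was counted 9864 times in the wild-type kidney and 1330 times in the transgenic kidney, giving values of 232.7 and 40.2. It was thus 5.79-fold lower in the transgenic kidney (5.47 to 6.14), with a log2 difference of −2.51. Of the compared genes, 1.19% had a lower difference.

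Klf4, known as a reprogramming factor and as a flow-responsive endothelial gene (chr4:55527137-55532475, minus strand), had a wild-type value of 29.8 and a transgenic value of 10.8 (1264 and 359 reads). That is 2.75-fold lower (2.44 to 3.10), a log2 difference of −1.38, or −0.93 and inside the 2-fold limit with a pseudocount of 10. Klf2, its endothelial relative (chr8:72319062-72321654, plus strand), had 20.05 and 13.01, from 850 and 431 reads, and was 1.54-fold lower (1.37 to 1.73), inside the 2-fold limit. Within a library, where scaling plays no part, the Klf4 to Klf2 ratio of values per kilobase was 0.907 (0.831 to 0.990) in WT+AKI and 0.508 (0.440 to 0.586) in TG+AKI, and these intervals do not overlap.

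Klf5, best known in the kidney from the collecting duct (chr14:99298691-99313412, plus strand), had the lowest level of the 10 members in both libraries. The wild-type library held 321 of its reads and the transgenic library 17. The ratio of the values was 14.7-fold lower in TG+AKI (9.07 to 25.6), larger than that of Klf6, although on the log2(value + 1) scale both came to about the same (−2.50 for Klf5), since the added 1 shrinks low values. Collecting duct markers did not follow it: of the 10 compared out of 11, 0 were at least 2-fold lower and 1 higher (Slc4a1, an anion exchanger also of red cells, 11.5 and 51.3), with a summed level of the 11 of 485.1 and 652.5.

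The Sin3A-binding subgroup was lower in TG+AKI except for Klf9. Klf10, first described as a TGF-beta inducible early gene (chr15:38291464-38300711, minus strand), had 47.0 and 10.8, from 1991 and 357 reads, and was 4.36-fold lower (3.89 to 4.89). Klf11, its closest relative (chr12:24651371-24662782, plus strand), had 25.8 and 7.55, from 1093 and 250 reads, and was 3.42-fold lower (2.97 to 3.93). The log2 differences were −2.03 and −1.65, so both fell past the 2-fold limit. Within a library, the Klf10 to Klf11 ratio of values per kilobase was 2.45 (2.27 to 2.63) in WT+AKI and 1.92 (1.63 to 2.26) in TG+AKI, with intervals that do not overlap.

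Klf13, a regulator of lymphocyte and heart genes (chr7:63886351-63938915, minus strand), had 51.7 and 32.0, from 2193 and 1061 reads. It was 1.61-fold lower (1.5 to 1.74), inside the 2-fold limit. Klf9, a glucocorticoid- and thyroid hormone-induced repressor (chr19:23141226-23168129, plus strand), had 246.5 and 262.7, from 10452 and 8701 reads, with a ratio of 1.07 (1.04 to 1.10). Its direction depended on the scaling: the log2 difference was 0.09 as deposited but −0.18 with equal totals and −0.05 with a median ratio of 1. Klf9 was the 1 member of 10 whose direction changed among the scalings and pseudocounts tried.

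Klf3, the CtBP-binding member (chr5:64803521-64832901, plus strand), had 95.2 and 61.0, from 4038 and 2021 reads, and was 1.56-fold lower (1.48 to 1.65). Exons of Klf3 overlap Gm20033, a transcript annotated on the opposite strand. How strand was treated in counting is not given in the sources used here, so reads from the pair may not be told apart. The longest transcripts of the 10 members shared no 100-base stretch with a transcript of another gene in the same orientation. Reverse-complement matches, as with Gm20033, were not searched.

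Klf15, the amino acid and podocyte regulator (chr6:90461043-90491803, plus strand), went the opposite way. Its value was 47.0 in the wild-type kidney and 149.6 in the transgenic kidney (1992 and 4954 reads). Klf15 was thus 3.18-fold higher (3.02 to 3.36), a log2 difference of 1.65, and 98.2% of compared genes had a lower difference. Among all scalings and pseudocounts tried, its log2 difference ran from 1.38 to 1.67.

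**Figure D2:**
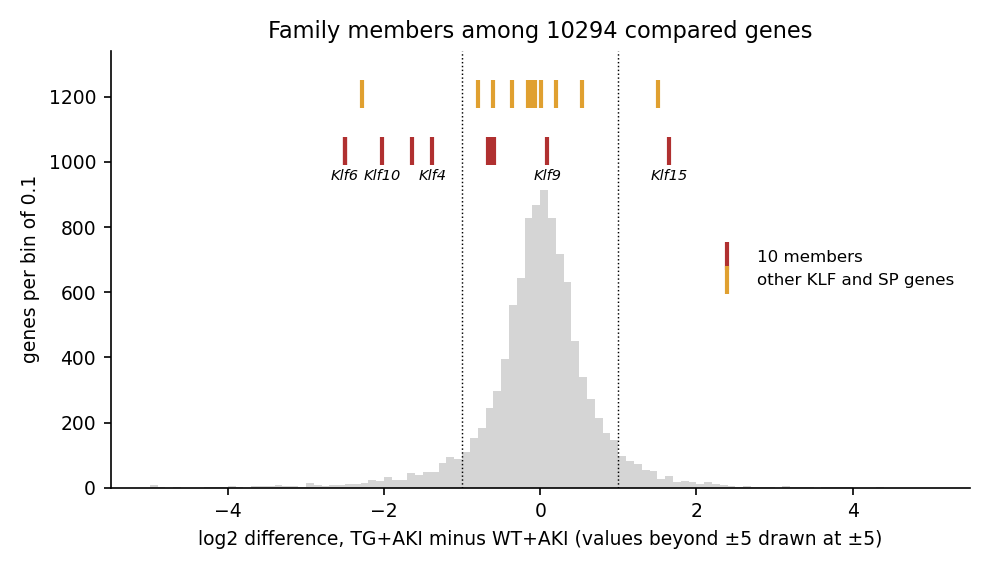
Histogram of the log2(value + 1) difference, TG+AKI minus WT+AKI, over the 10294 compared genes (grey; vertical axis, genes per bin of 0.1), with the 10 members (red ticks) and the other 11 listed KLF and SP genes (orange ticks) above it; dotted lines mark 2-fold, and ticks include genes below the minimum value (Klf5, and Klf1, Klf8, Sp5 and Sp6). Klf6, Klf5, Klf10, Klf11 and Klf4 lie in the lower tail, Klf2, Klf3 and Klf13 cluster near −0.6, and Klf15 and Klf12 lie in the upper tail.

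The order of the members changed between the kidneys. Levels of different genes are compared here per kilobase of the longest annotated transcript. In WT+AKI, Klf6 (55.1) and Klf9 (55.0) were highest, with overlapping counting intervals, followed by Klf15 (18.9) and Klf3 (18.2), whose intervals also overlapped. Then came Klf10 (15.4), Klf2 (10.9) and Klf4 (9.84), the last pair not separable, and Klf13 (8.09), Klf11 (6.31) and Klf5 (2.26). In TG+AKI, Klf15 (60.3) and Klf9 (58.6) were highest and not separable, then Klf3 (11.7), Klf6 (9.51), Klf2 (7.05) and Klf13 (5.01). Klf4 (3.58) and Klf10 (3.54) overlapped, and Klf11 (1.85) and Klf5 (0.153) were lowest. With the median transcript length in place of the longest, Klf6 remained first in WT+AKI but Klf15 was 8th, and in TG+AKI Klf9 was first and Klf15 was second.

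Klf6 made up 27.5% of the family's summed values per kilobase in WT+AKI and 5.90% in TG+AKI. Klf15 moved from 9.47% to 37.4%, and Klf9 from 27.5% to 36.3%. Counted as reads with no correction for length, the Klf6 share went from 29.0% (28.5 to 29.4) to 6.83% (6.48 to 7.19) and the Klf15 share from 5.85% (5.60 to 6.10) to 25.4% (24.8 to 26.0). The summed values of the 10 members were 803.3 and 588.3, a ratio of 0.732 (0.719 to 0.745). Per kilobase of longest transcript, the Klf15 to Klf6 ratio within a library was 0.344 (0.327 to 0.361) in WT+AKI and 6.34 (5.97 to 6.74) in TG+AKI. In reads it was 0.202 and 3.72. The 18.4-fold change does not depend on how the libraries were scaled or on the transcript length used. With the median transcript length, the shares were 34.9% and 10.8% for Klf6, 3.31% and 18.9% for Klf15, and 14.7% and 28.1% for Klf9. Klf15 to Klf9, per kilobase of longest transcript, went from 0.344 to 1.03.

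**Figure D3:**
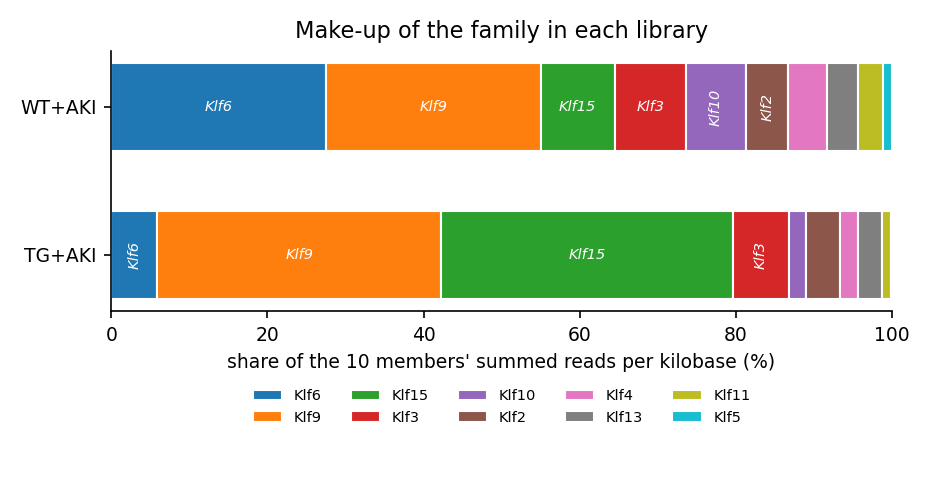
Share of each member in the summed values per kilobase of longest transcript of the 10 members (horizontal axis, percent), 1 bar per library and 1 color per gene. Klf6 shrinks from 27.5% to 5.90% between WT+AKI and TG+AKI, while Klf15 grows from 9.47% to 37.4%.

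Fewer of the other compared KLF and SP genes were past 2-fold. Members and lists were chosen with earlier results of these data known, so this is a description and not a test. Sp6, given below, is outside the count through its low values. Of 16 further genes, 11 had a row and 7 were compared; 0 were at least 2-fold lower, 1 was at least 2-fold higher, and their median log2 difference was −0.16. The 1 was Klf12, a CtBP-binding repressor like Klf3, at 11.2 and 33.6 (ratio 3.0, 2.69 to 3.35). Klf12 and Klf3 moved apart: the Klf12 to Klf3 ratio per kilobase was 0.104 in WT+AKI and 0.488 in TG+AKI. Klf7, an activator related to Klf6, had 33.5 and 21.7, and Klf16, a Sin3A-binding member, had 11.04 and 5.95, with log2 differences of −0.60 and −0.79.

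The ubiquitous GC-box factors were within 2-fold. Sp1 had 88.9 and 82.9, Sp3 had 71.6 and 55.3, Sp2 had 13.7 and 12.2, and Sp4 had 9.53 and 11.1. Below the minimum value, Sp6 stood at 4.76 and 0.181 (202 and 6 reads, ratio 0.0380, 0.0138 to 0.0842), Sp5 at 4.39 and 6.79, Klf1, the erythroid factor, at 1.67 and 1.69, and Klf8 at 1.16 and 1.06. Cofactors and turnover enzymes of the KLFs, such as CtBP, Sin3, histone deacetylases, acetyltransferases and ubiquitin ligases, showed 0 of 15 compared genes at least 2-fold lower and 0 higher, with a median of 0.04 that turned negative under equal totals (−0.23) and a median ratio of 1 (−0.10). Fbxw7, a ubiquitin ligase subunit, was just inside the limit (27.7 and 13.4), and 2 of the 15 were at least 2-fold lower with equal totals.

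Upstream of Klf2 and Klf4, the MEK5-ERK5-MEF2 genes were within 2-fold, 0 of 7 lower and 0 of 7 higher, with a median log2 difference of −0.38. Of the genes that Klf2 and Klf4 are known to regulate in endothelium, 4 of 6 compared were at least 2-fold lower and 0 higher, with a median of −1.08. The 4 were Edn1, the endothelin precursor (11.9 and 2.02), Vcam1, a leukocyte adhesion molecule (55.6 and 12.4), Thbd, thrombomodulin (75.5 and 34.9), and Nos3, endothelial nitric oxide synthase (20.05 and 9.09). Klf2 and Klf4 are known to induce Nos3 and Thbd and to repress Edn1 and Vcam1, so genes of both kinds were lower. Tek, the angiopoietin receptor, had 54.0 and 61.9, a ratio of 1.15 (1.078 to 1.22). With a pseudocount of 10, 1 of the 6 passed the limit. Vcam1 is also counted below among tubular injury markers. The 12 endothelial markers, by contrast, showed 0 of 12 at least 2-fold lower and 0 higher, with a median of −0.23 and a summed level of 769.3 and 695.7.

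Klf10 and Klf11 are induced by TGF-beta. Of 12 compared TGF-beta genes, 4 were at least 2-fold lower and 0 higher, with a median of −0.68. Among these were Tgfbi, a matrix protein (44.9 and 8.24), Tgfb1, the ligand (19.6 and 7.64), and Tgfbr2, its receptor (163.3 and 68.4). Mural and fibroblast markers, the cells in which this pathway acts in scarring, had 3 of 9 at least 2-fold lower (Col1a1, 47.8 and 11.1, Col3a1, 119.5 and 31.0, and Dcn, 120.4 and 55.2), and a summed level of 631.6 and 348.6. Their part in the Klf10 and Klf11 difference was not tested.

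Immediate early genes, the rapid transcriptional response to which Klf4, Klf6 and Klf10 are often assigned, were lower in TG+AKI in 13 of 18 compared genes by at least 2-fold, 0 higher, with a median of −1.85. Among them were Fosl1, an AP-1 subunit (41.2 with 1745 reads, against 1 read in TG+AKI, ratio 0.000734, 1.86e-05 to 0.00409), Atf3, a stress-induced factor (27.2 and 1.81), Egr2, a zinc-finger factor (12.4 and 0.362), and Maff, a small MAF protein (24.6 and 1.69). The differences of Klf6 (−2.51) and Klf10 (−2.03) were below that median, and those of Klf4 (−1.38) and Klf11 (−1.65) were above it. None of these 4 members is in the list.

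Klf9 and Klf15 are both induced by glucocorticoids. Of 13 glucocorticoid-responsive genes, 6 were at least 2-fold lower and 0 higher, with a median of −0.95, so the list did not share the direction of Klf15. Mt2 (344.6 and 22.6) and Mt1 (378.9 and 42.4), which encode metallothioneins, Pdk4, a brake on pyruvate oxidation (221.1 and 21.5), and Angptl4, a lipase inhibitor (223.9 and 56.3), were the lowest, and Nr3c1, the receptor, had 95.1 and 108.5. Both members are also linked to the circadian clock. Clock genes showed 2 of 11 at least 2-fold lower (Bhlhe40, 133.8 and 58.0, and Per2, 41.2 and 18.6) and 0 higher, with a median of −0.03. Arntl, the clock activator BMAL1 (10.4 and 21.1), and Hlf, a clock output factor (57.9 and 116.5), were just under the limit on this scale, and with a pseudocount of 0.1 2 of the 11 were higher. The hour at which each kidney was collected is not given in the sources used here.

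Klf15 is known to induce enzymes that break down branched-chain amino acids and other amino acids. Of 26 compared branched-chain genes, 14 were at least 2-fold higher in TG+AKI and 0 lower, with a median log2 difference of 1.07. With equal totals, 6 of the 26 passed. Acat1, an acetyl-CoA acetyltransferase (245.8 and 788.3), Pcca, a propionyl-CoA carboxylase subunit (48.9 and 148.1), and Bckdha and Bckdhb, subunits of the branched-chain ketoacid dehydrogenase (122.7 and 329.0, 14.8 and 39.6), had the largest differences. Of 8 proline, alanine and urea enzymes, 4 were at least 2-fold higher and 0 lower (Ass1, 523.5 and 2643, Asl, 61.6 and 250.03, Prodh2, 24.9 and 89.8, and Prodh, 117.6 and 356.9). In this list Gpt, the alanine aminotransferase known as a Klf15 target, had 38.5 and 22.9, and Pck1, the gluconeogenic enzyme, had 2438 and 1682.

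Proximal tubule cells, which express many of these enzymes, had markers that moved with them. All 12 proximal tubule markers were at least 2-fold higher in TG+AKI, with a median of 1.68 and a summed level of 4259 and 17009. Miox (132.0 and 1342), Slc22a8 (69.6 and 528.5), Slc34a1 (764.5 and 5397) and Slc5a12 (140.2 and 648.4) had the largest differences. Thick ascending limb markers had 3 of 5 at least 2-fold higher, with Slc12a1 at 395.3 and 1049, or 1 of 5 with equal totals. In whole tissue, fewer cells of a type and less RNA per cell cannot be told apart. Whether Klf15 or the amino acid genes followed the proximal tubule content was not tested. Podocyte markers, the other cell type that Klf15 is known from, had 0 of 8 past 2-fold in either direction, a median of −0.06 and a summed level of 555.0 and 638.6.

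All 15 tubular injury markers, by contrast, were at least 2-fold lower in TG+AKI, with a median of −3.05 and a summed level of 13635 and 939.6. They included Havcr1, which encodes KIM-1 (1169 and 2.78), Lcn2, which encodes NGAL (249.8 and 1.87), Krt20, a keratin (399.2 and 0.362), and Sprr1a, a cornified envelope protein (129.4 and 1.24). Macrophage markers had 6 of 8 at least 2-fold lower, with the largest difference for Cd68 (37.1 and 1.39), and a summed level of 195.9 and 85.8. Csf1r went the other way (37.5 and 43.0, ratio 1.15, 1.07 to 1.23), as did Mrc1 below the minimum value (2.67 and 4.26). Neutrophil and lymphocyte markers stayed below the minimum value in both libraries, with summed levels of 7.38 and 1.42 and of 2.83 and 4.20. With a pseudocount of 10, 3 of the 8 macrophage markers passed the limit. The injury list and 7 of the 8 compared macrophage markers were lower, as were Klf4, Klf6, Klf10 and Klf11. The part of either list in the differences of these members was not tested. Housekeeping genes had 0 of 14 past 2-fold, or 2 lower with equal totals.

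**Figure D4:**
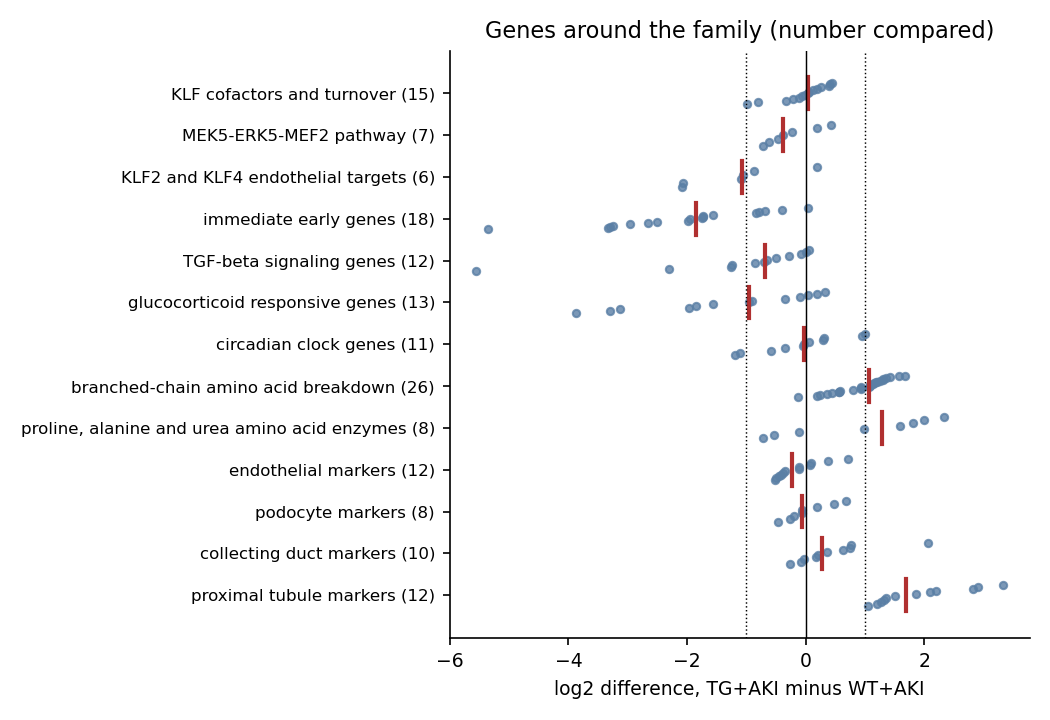
Log2(value + 1) difference, TG+AKI minus WT+AKI, of each compared gene (blue points) in 13 lists of genes around the family, with the number compared in brackets and the list's median as a red bar; dotted lines mark 2-fold. Immediate early genes and the endothelial targets lie mostly to the left (medians −1.85 and −1.08), branched-chain amino acid breakdown and proximal tubule markers to the right (1.07 and 1.68), and the cofactors around 0.

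AUUUA pentamers, the core of AU-rich elements that bear on transcript turnover, varied among members. They were counted in the annotated 3′ untranslated region (searched as ATTTA), where the 9771 compared genes with such a region had a median of 1.35 per kilobase. Klf10 had the highest density among members (2.68 per kilobase, 75.9th percentile of all listed genes with an annotated region, compared or not), followed by Klf9 (2.48), Klf5 (2.34), Klf6 (2.25) and Klf15 (2.11). The lowest were Klf4 (1.018) and Klf13 (0.582). Klf9 ranked above Klf6, and Klf15 above Klf11 and Klf4, while Klf10, Klf5 and Klf6 ranked above Klf15. A relation between density and the direction of the difference was not tested. The longer element TTATTTATT was found only in Klf5 among members, against 7.53% of the compared genes with an annotated region.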

How the data were processed

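Whole-kidney mRNA was sequenced from 1 WT+AKI and 1 TG+AKI sample (TruSeq Stranded, NovaSeq). The authors aligned to mm10, and the submitters' processing notes name STAR 2.7.3a, HTSeq, DESeq2, edgeR, Cufflinks 2.2.1 and FastQC. Annotation and counting strand are not given in the sources used here. The deposited values are a normalized signal per gene, with both columns used: within 0.01 read, 100% of values were whole reads, and the scale matched TMM-scaled CPM, recomputed with edgeR 4.0.16 in R 4.3.3. Size factors were computed with DESeq2 1.42.0, and the rest with Python 3.11.15, numpy 2.4.6, scipy 1.17.1 and pandas 2.3.3. Scripts were tested on simulated data.

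Values were compared as log2(value + 1) among genes with at least 10 in 1 library (10 corresponds to 424 and 331 reads), and a difference of at least 2-fold was counted. A two-sided exact binomial test with Benjamini-Hochberg adjustment on recovered reads, a comparison of 2 libraries rather than of conditions, called 8275 of 10294 genes at an adjusted p of 0.05. Named were all members, Inmt, the KLF and SP genes with a row, and from each list up to 4 genes (2 where the list's median was under 0.5) with the largest differences past 2-fold; Nr3c1, Gpt, Pck1, Arntl, Hlf, Tek and Fbxw7 were added after their values were seen, and 1 gene that the rule names is not reported here. Members and lists were chosen with earlier results of these data known. Pseudocounts, scalings, filters and transcript lengths were varied. Protein sequences were not analysed here, and intervals cover counting error only.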

Additional observations from a re-analysis of the deposited data

How the results depend on the processing

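No paired analysis was possible because each group had 1 library. Direction was kept by 9 of 10 members over 6 alternatives of scaling and pseudocount, and by 16 of 19 list medians over 9. Klf9 reversed, to −0.18 when totals were equalized and −0.052 at a median ratio of 1. The cofactor median reversed to −0.23 and −0.10 under these scalings, and at a minimum of 50 the clock median became 0.17 and the podocyte median 0.33. Members at least 2-fold lower numbered 4, but 1 at a minimum of 50, where only 5 members were compared, 3 with a pseudocount of 10 (without Klf4) and 7 with a 1.5-fold limit. Genes at least 2-fold lower and higher numbered 733 and 591, against 408 and 372 with a pseudocount of 10, 1143 and 361 with equal totals, 295 and 374 at a minimum of 50, and 1470 and 1438 with a 1.5-fold limit. Without a minimum, or with 1, 1150 genes were lower. The share of higher genes among those past 2-fold was 44.6%, against 24% with equal totals, 33.4% with a median ratio of 1 and 55.9% at a minimum of 50. The median of all genes shifted by −0.28 when totals were equalized and by −0.15 at a median ratio of 1, while 4 members stayed lower and 1 higher under each scaling. With the median transcript length, shares of Klf2, Klf3 and Klf13 were higher rather than lower in TG+AKI. The comparison of protein sequences was not run. Klf5, with 17 reads in TG+AKI, is the member that depth limits most.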
